A study of Mus musculus with 3 samples.

Results

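Genes of matrix proteases and their inhibitors were followed in PyMT tumor cells treated with RANKL (RL). The 10 genes were Adamts8, Adamts1, Adamts4, Adamts5, Mmp2, Mmp3, Mmp13, Mmp14, Timp1 and Timp3. The list was chosen by the RL response of Adamts8, which was among the largest rises on these arrays, and was filled with related proteases and inhibitors. The RL over control ratios of the members are therefore a description, and nothing is read from tests of them. The 10 genes were measured by 12 of 55681 distinct probes, and all 10 were among the 21743 genes and transcripts tested.

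Cultures of primary mammary tumors from MMTV-PyMT mice, in which the mammary tumor virus promoter drives the polyoma middle T oncogene, were compared with and without RL. Each of 3 tumors gave an untreated culture and a culture kept for 24 h with RL, at 1000 ug/ml by the labels and at a 1000-fold lower dose in the study's methods. All cultures grew in DMEM F12 with serum, cholera toxin, insulin and EGF. The cultures of a tumor shared 1 two-color array, with RL in Cy3 for tumors 1 and 3 and in Cy5 for tumor 2, so 3 arrays limit the precision of every value.

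ADAMTS proteases are secreted metalloproteinases that cut proteoglycans such as versican and aggrecan. Matrix metalloproteinases (MMPs) cut collagens and other matrix proteins, and tissue inhibitors of metalloproteinases (TIMPs) bind the active site of these enzymes. In the mammary gland these enzymes and inhibitors take part in duct growth, involution and tumor invasion, and many are made by stromal as well as epithelial cells.

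All 12 member probes were well above background in all 6 channels, the scanner software's call that a spot exceeds its local background. In untreated cultures the normalized log2 intensity of the Adamts8 probe used was 9.60, 9.50 and 9.61 in tumors 1, 2 and 3. With RL it was 10.56, 10.11 and 10.11. The lowest RL level of Adamts8, a protease with a thrombospondin domain, lay 0.49 above its highest control level, so the groups did not overlap. The log2 ratio of RL over control was 0.97, 0.61 and 0.50, with a mean of 0.69 ± 0.25 (SD, n = 3), a fold of 1.62. By mean ratio Adamts8 stood at position 10 of all genes tested, between Traf1 at 0.70 and Bace2 at 0.65.

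A second Adamts8 probe, for the same transcript, was dim. Its spots read 89.0, 39.0 and 93.5 in the control channels over local backgrounds of 69, 36 and 77.5. Its log2 ratios were 0.09, -0.08 and 0.10, with a mean of 0.04 ± 0.10 (SD, n = 3). The probes thus disagreed, and their average for Adamts8 was 0.36, at position 64. Without background correction the dim probe had a mean ratio of 0.05, and with the scanner software's processed signals it had 0.11.

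Adamts1, a versican-cutting protease, had control levels of 11.61, 12.54 and 12.10 and RL levels of 12.30, 12.54 and 12.21. Its ratios were 0.70, 0.0022 and 0.12, with a mean of 0.27 ± 0.37 (SD, n = 3). The mean rested on tumor 1, and without that tumor it was 0.06. Adamts4, an aggrecanase, had ratios of 0.41, 0.13 and 0.16, with a mean of 0.23 ± 0.15 (SD, n = 3) that was 0.15 without tumor 1. Adamts5, the other main aggrecanase, had ratios of 0.13, 0.07 and 0.04, with a mean of 0.08 ± 0.05 (SD, n = 3). The second Adamts5 probe read -0.20, 0.06 and 0.09, so the probes disagreed in sign in tumor 1. The 4 ADAMTS members were above 0 in each tumor by the probe used and the main settings. These follow the study's methods, with an offset and spans that the study does not give. With other settings some values fell below 0: the mean of Adamts5 was -0.0079 when arrays were median-centered instead of loess-normalized, and with processed signals Adamts5 read -0.05 in tumor 3 and Adamts1 read -0.02 in tumor 2. With a normexp offset of 10 Adamts1 read -0.0027 in tumor 2.

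**Figure D1:**
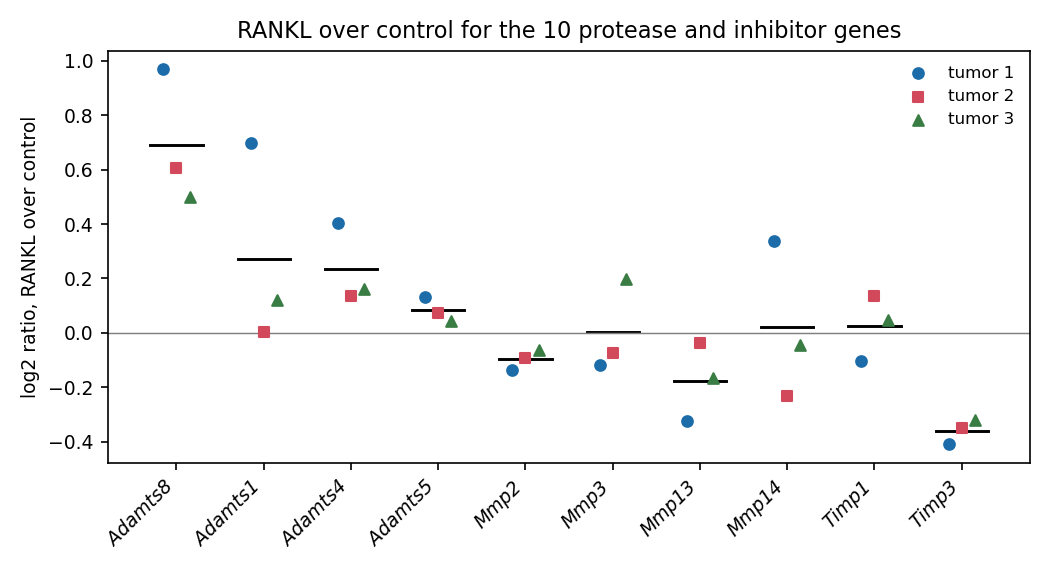
Log2 ratio of RL over control (vertical axis) for each of the 10 genes (horizontal axis), with 1 point per tumor and a bar at the mean. Adamts8 lies between 0.50 and 0.97 and Timp3 between -0.41 and -0.32, while Mmp3, Mmp14 and Timp1 have points on both sides of 0; with median centering in place of loess the mean of Adamts5 turned to -0.0079, that of Timp1 to -0.15, that of Mmp14 to -0.14 and that of Mmp3 to -0.09.

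Timp3, an inhibitor that is held in the matrix and blocks ADAMTS proteases and MMPs, had control levels of 13.47, 14.11 and 14.24. With RL the levels were 13.07, 13.76 and 13.92. Each RL culture was lower than the untreated culture of its tumor, though the groups overlapped. The ratios were -0.41, -0.35 and -0.32, with a mean of -0.36 ± 0.04 (SD, n = 3), which was larger in size than that of 99.1% of all genes tested. It was -0.42 with processed signals and -0.55 with median centering, a setting that moved the median of all genes by -0.11. Timp1, a secreted MMP inhibitor, had ratios of -0.10, 0.14 and 0.05, and its mean of 0.03 ± 0.12 (SD, n = 3) was smaller than its spread.

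The collagenase Mmp13 had ratios of -0.32, -0.04 and -0.17, with a mean of -0.18 ± 0.14 (SD, n = 3) that was -0.10 without tumor 1. Without background correction it read 0.03 in tumor 2. The gelatinase Mmp2 had ratios of -0.14, -0.09 and -0.06, with a mean of -0.10 ± 0.04 (SD, n = 3). Stromelysin Mmp3, which can activate other MMPs, had ratios of -0.12, -0.08 and 0.20. Mmp14, a membrane-bound activator of pro-MMP2, had ratios of 0.34, -0.23 and -0.04. The directions of Mmp3 and Mmp14 thus differed between tumors, and their means of 0.0021 and 0.02 fell below 0 with, among other settings, a dye term or median centering.

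Of the 10 members, 4 were higher with RL in all 3 tumors, as were 14.1% of all genes, and 3 were lower in all 3, as were 13.6%, by the main settings. The RL levels lay wholly above the control levels for 1 member (1.54% of all genes) and wholly below for 0 members (1.34%). In limma, fitted over all genes, 0 members passed an adjusted p of 0.05 in either direction, against 0.00460% of all genes called higher and 0.0230% called lower, while 2 members were higher and 1 lower at an unadjusted p of 0.05, as were 3.50% and 3.58% of all genes. The rank product of the study's methods, at a proportion of false positives (pfp) of 0.05, called 1 member higher and 0 lower, against 0.170% and 0.235% of all genes. As the choice of members used this contrast, nothing is read from these counts. Over all genes limma called 1 higher and 5 lower. Without tumor 2, the array of opposite dye order, it called 561 and 922.

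The tumors differed in the levels of several members by more than the RL and control cultures of a tumor did. For Mmp3 the mean of both channels read 9.77, 13.75 and 12.19 in tumors 1, 2 and 3. This range of 3.98 on the log2 scale was wider than that of 99.8% of all genes. For Mmp13 the tumors read 8.38, 10.81 and 9.05, a range of 2.43. The highest level of both genes was thus in tumor 2 and the lowest in tumor 1. For Timp1 the tumors read 12.60, 14.22 and 14.92, a range of 2.32, and for Mmp2 the range was 1.62, both lowest in tumor 1. Mmp14 had its highest level in tumor 1, at 9.91, against 8.76 and 8.95. By contrast the range was 0.28 for Adamts8, wider than that of 51.0% of all genes, and 0.30 for Adamts5. With 1 array per tumor, a difference between tumors cannot be told apart from one between arrays.

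**Figure D2:**
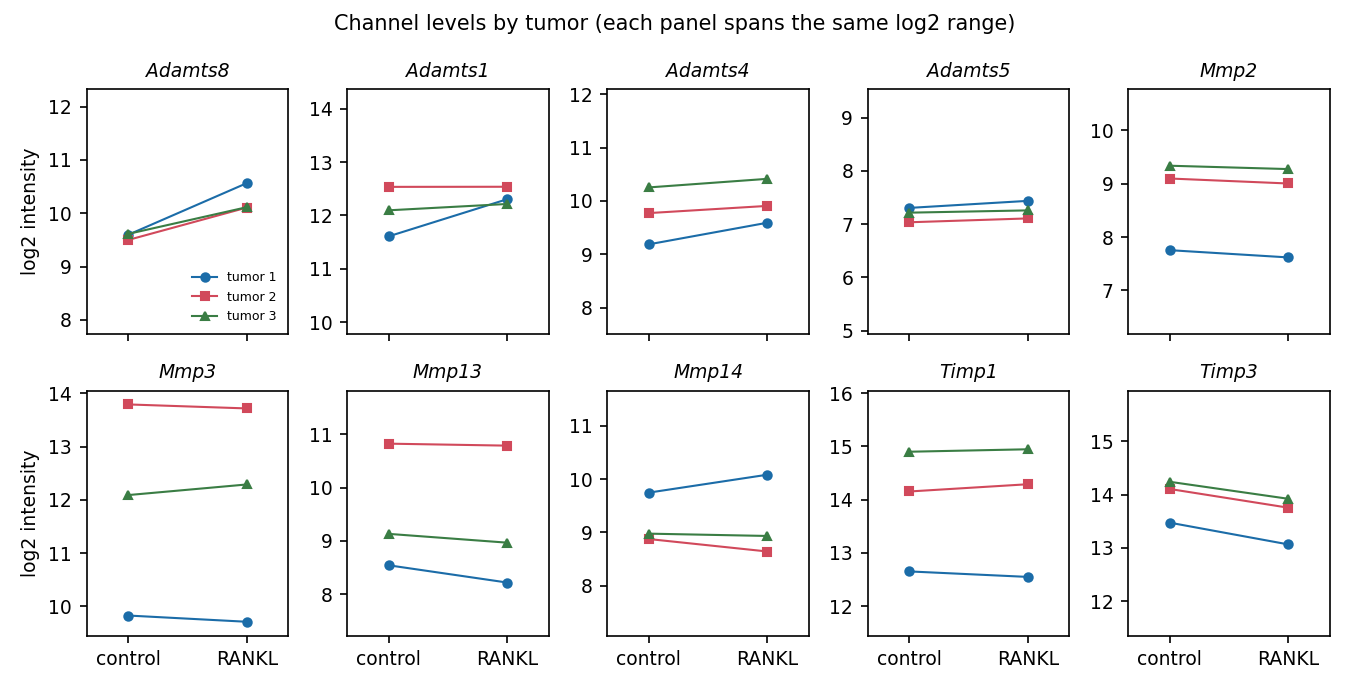
Normalized log2 intensity (vertical axes, each spanning the same log2 range) in the control and RL channels for the 10 genes, with a line joining both cultures of a tumor. The lines of Mmp3 lie far apart, with tumor means from 9.77 to 13.75, whereas those of Adamts8 start together near 9.60.

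Markers of the cell types such cultures could hold were read beside these levels. Luminal markers were well above background in all channels for 8 of 8 genes, led by Krt18, and summed to 335870, 218370 and 388340 in control cultures and to 268240, 249070 and 289590 with RL, in linear intensity. The ratios of Krt18 were -0.73, 0.43 and -0.70, turning with the dye order, while the median ratio of the luminal markers was 0.16, -0.17 and -0.06. An RL change in the luminal sum is therefore not read. Basal markers were so for 6 of 7 genes, led by Krt14, without Myh11, and summed to 44148, 80620 and 129270 in control cultures and to 49243, 74505 and 105750 with RL. Keratins that define mammary epithelium were thus measured in every culture.

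Fibroblast markers were well above background for 10 of 10 genes, led by Col1a1, and summed to 10327, 5926 and 19894 in control cultures and to 8486, 6275 and 19509 with RL. Myeloid markers were so for 7 of 8 genes, led by Cd14, without Ptprc in every channel, and summed to 35396, 25306 and 20569 in control cultures and to 39180, 22858 and 20307 with RL. Cd14 had ratios of 0.56, -0.18 and 0.06, while the median ratio of the myeloid markers was -0.11, -0.08 and -0.0018. An RL change in the myeloid sum is therefore not read. RNA of stromal and myeloid marker genes was thus measured as well. The myeloid markers differed widely in mean log2 control level, from 6.30 for Ptprc and 6.37 for Adgre1 to 12.9 for S100a8 and 13.34 for Cd14. A content of myeloid cells is therefore not read from their sum. Endothelial markers were so for 2 of 5 genes, led by Kdr, with Tek not well above background in any channel, and summed to 2291, 2307 and 2121 in control cultures and to 2503, 2227 and 2341 with RL. The part of these cell types in the member values was not tested, and fewer cells of a type cannot be told apart from less RNA per cell.

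The promoters of 6 of the 10 members were in the RefSeq table of GRCm38.p6, those of Adamts1, Mmp3, Mmp13, Mmp14, Timp1 and Timp3. The AP-1 motif TGANTCA, which reads the same on both strands, was searched in the 250 bases before each start because AP-1 is a textbook regulator of MMP genes. It was found in Mmp3, where it began at -46, and in Mmp13, at -35, and 6.75% of 32851 promoter windows of this length held it. Below are the last 120 bases before the start of both genes and of Timp3, which had the lowest mean ratio among the members, with the motif in capitals. They lie on the plus strand, at chr9:7445702-7445821 for Mmp3, chr9:7272394-7272513 for Mmp13 and chr10:86300292-86300411 for Timp3.
Mmp3: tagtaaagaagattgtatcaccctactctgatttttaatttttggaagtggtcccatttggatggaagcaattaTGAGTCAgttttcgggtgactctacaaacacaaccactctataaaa
Mmp13: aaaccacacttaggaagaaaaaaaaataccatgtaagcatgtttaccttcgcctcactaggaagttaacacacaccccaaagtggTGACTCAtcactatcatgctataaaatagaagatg
Timp3: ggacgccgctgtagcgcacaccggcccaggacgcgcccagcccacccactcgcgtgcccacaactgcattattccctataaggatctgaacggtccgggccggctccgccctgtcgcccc

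The kappaB consensus, searched on both strands, was in 0 of the 6 member windows and in 7.25% of all windows. A match describes letters only. In RefSeq Adamts8 lies next to Adamts15 and Adamts1 next to Adamts5, while Mmp3 lies between Mmp1b and Mmp1a and Mmp13 next to Mmp12.

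Other genes of the same families were then examined with the fit over all genes. Across 9 lists of proteases, inhibitors, activators, substrates and regulators, 93 of 130 genes were tested, and limma and the rank product each called 0 in either direction. The counts in the rest of this paragraph are for 92 genes, without Mmp8, which was kept through its control channels alone. With a dye term limma called 1 higher and 2 lower, beside 0.566% and 0.745% of all genes. Without tumor 2 it called 4 higher, among them Adamts9 and Junb, and 1 lower, beside 2.58% and 4.24% of all genes. Both arrays left without tumor 2 held RL in Cy3, so dye and treatment cannot be told apart there. The dye term rested on tumor 2 alone for RL in Cy5, so calls and adjusted p-values with that term are weak evidence. At an unadjusted p of 0.05 limma gave 5 higher and 4 lower, against 3.50% and 3.58% of all genes. Of these 92 genes, 12 were higher and 13 lower in all 3 tumors, beside 14.1% and 13.6% of all genes. Their median log2 ratio was -0.02, beside -0.0020 over all genes. Of the 17 means that were highest or lowest in their list, 3 changed sign and 10 others moved by over 1.5 times when 1 tumor was left out.

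Among 6 of 15 other ADAMTS genes tested the median ratio was 0.10, and Adamts9, a versican-cutting protease, was highest at 0.34 (adjusted p = 0.425 in limma, 0.0319 with a dye term and 0.00961 to 1.00 over all alternatives, higher in 3 of 3 tumors). Without tumor 1 its mean was 0.21. Adamts10, which takes part in microfibril assembly, was lowest at 0.0080, a sign held in 7 of 15 alternatives. Adamts15, the neighbor of Adamts8, had ratios of 0.27, 0.28 and 0.14 and did not pass the test, with an adjusted p of 0.514 in limma. Together with Adamts9, the genes Adamts7, Adamts14 and Adamts15, named after their values were seen, were the 4 of 6 higher with RL in all 3 tumors, beside 14.1% of all genes. The other 9 genes did not pass the filter on dim probes, and without that filter the median of the list was 0.0095. In the ADAMTS-like list, of proteins without a protease domain, 4 of 7 were tested, with a median of -0.04. They ranged from Papln at -0.16 to Adamtsl4 at 0.06. With median centering these were -0.32 and -0.10. Papln was -0.08 without tumor 1, and Adamtsl4 was 0.00078 without tumor 2.

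For other MMPs 10 of 19 were tested, with a median of -0.02, which was -0.01 over the 9 genes without Mmp8. Mmp15, a membrane-type MMP, was highest at 0.17, with ratios of 0.60, -0.0071 and -0.09 that rested on tumor 1. The neutrophil collagenase Mmp8 was lowest at -0.25, with ratios of -0.49, -0.11 and -0.16. The spread of Mmp15 exceeded its mean, and it did not pass the test. The RL channel of Mmp8 in tumor 2 was not well above background, so no direction is drawn from its ratios.

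Other inhibitors were tested for 13 of 17 genes, with a median of -0.03. Their highest value was 0.11 for Timp2, an MMP2-binding inhibitor, and their lowest was -0.18 for Spint2, a serine protease inhibitor. Without tumor 3 these were 0.03 and -0.07, and with median centering they were -0.06 and -0.39. Protease activators, tested for 13 of 18 genes, had a median of -0.06, which was -0.0010 with a dye term and 0.02 without tumor 3. Of these, 0 were higher and 5 lower in all 3 tumors, beside 14.1% and 13.6% of all genes. The kallikrein Klk10 was lowest at -0.36, with ratios of -0.11, -0.55 and -0.40 and an adjusted p of 0.398 in limma. With a dye term it was -0.41 and passed (adjusted p = 0.00215, up to 1.00 over all alternatives). Bmp1, which matures procollagens, was highest at 0.08, but was -0.0054 with the mean over its probes and -0.09 with median centering.

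Membrane-bound ADAM proteases, tested for 8 of 12 genes, ranged from -0.15 for Adam12 to 0.10 for Adam17, which sheds TNF. Without tumor 3 these were -0.08 and 0.05, and with median centering they were -0.29 and -0.0077. The lysosomal cathepsins, tested for 8 of 8 genes, ranged from -0.27 for Ctsd to 0.05 for Ctsl. With median centering these were -0.49 and -0.18, and Ctsl was 0.0030 without tumor 1. The ratios of Ctsd were -0.27, -0.31 and -0.21 (adjusted p = 0.403 in limma, 0.0495 with a dye term and up to 1.00 over all alternatives, lower in 3 of 3 tumors). Matrix substrates, tested for 15 of 18 genes, had a median of -0.03, which turned to 0.03 without tumor 1 or tumor 3 and to 0.01 with a dye term. The collagen Col3a1 was lowest at -0.09, with ratios of -0.34, 0.19 and -0.13. Its mean was 0.03 without tumor 1 and -0.02 with a dye term. Regulators of MMP genes, tested for 16 of 16 genes, ranged from -0.15 for Fos to 0.28 for Junb, both parts of AP-1. Junb had ratios of 0.64, -0.07 and 0.28, so its direction differed in tumor 2, and its mean was 0.11 without tumor 1. The cytokine Il1b, named after its values were seen, was the 1 of 16 regulators higher in all 3 tumors, and 3 were lower in all 3, beside 14.1% and 13.6% of all genes. The Il1b probe was dim, with a mean log2 level of 6.57 in control and 6.85 in RL cultures. Its ratios were 0.28, 0.20 and 0.35, its mean ran from 0.19 to 0.69 over the alternatives, and it did not pass (adjusted p = 0.394 in limma and 0.0178 to 1.00 over all alternatives, the lowest without tumor 2).

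**Figure D3:**
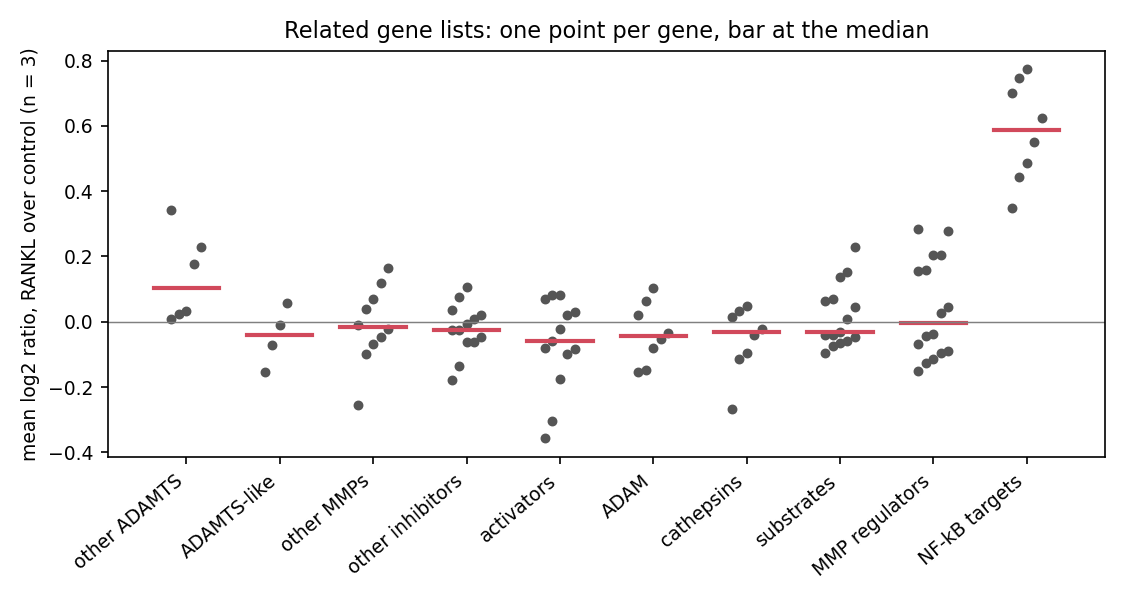
Mean log2 ratio of RL over control over 3 tumors (vertical axis) for each tested gene of the related lists (horizontal axis), with 1 point per gene and a bar at the median. The medians of the protease, inhibitor, substrate and regulator lists lie between -0.06 and 0.10, and that of the NF-kB targets lies at 0.59; with median centering in place of loess that of other ADAMTS genes fell to 0.02.

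As a reference for the RL response, 8 target genes of NF-kB, the transcription factor that RANK activates, were read in the same fit. All 8 were higher with RL in all 3 tumors, beside 14.1% of all genes. As the lists were chosen with earlier results of these data known, this count is not an independent check. Their median ratio was 1.15, 0.45 and 0.25 in tumors 1, 2 and 3 and 0.59 over the means, which fell to 0.35 without tumor 1. The rank product called 4 of them higher, and limma called 0, with 8 higher at an unadjusted p of 0.05. In limma 8 were called with a dye term (0.566% of all genes), 8 without tumor 2 (2.58%) and 1 with an intensity trend and robust moderation, and 0 with each other alternative. The calls with a dye term rested on tumor 2 alone for RL in Cy5, and those without tumor 2 on arrays with RL in Cy3 only. Without tumor 1 the mean of Nfkb2 was 0.31, that of Relb 0.25, that of Nfkbia 0.42, that of Nfkbie 0.47 and that of Tnfaip3 0.20. Nfkbia, an inhibitor of NF-kB, had ratios of 1.47, 0.47 and 0.37 (pfp 0.00152). Nfkbie, a related inhibitor, had a mean of 0.75 (pfp 0.00175), Traf1, a TNF receptor adaptor, 0.70 (pfp 0.00123), and Nfkb2, an NF-kB subunit, 0.63 (pfp 0.0291). Relb, Icam1, Birc3 and Tnfaip3 had means of 0.55, 0.49, 0.44 and 0.35 and did not pass. Icam1 was 0.94 with processed signals and 0.71 with the authors' log2 ratios. In tumor 1 the ratio of Nfkbia exceeded those in the other tumors, as did that of Adamts8. The ratios of all genes also spread most in tumor 1, with an SD of 0.19 against 0.15 and 0.17 in tumors 2 and 3. A link between Nfkbia and Adamts8 was not tested.

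The 5 named genes closest to Adamts8 over the 3 log2 ratios, by Euclidean distance, were Bace2, Fcgbp, Plekhs1, Bcl2l15 and Foxa2. Bace2, an aspartyl protease, lay at 0.18, with ratios of 0.86, 0.70 and 0.40. Fcgbp, a mucus-associated protein, lay at 0.23, and Foxa2, a forkhead transcription factor, at 0.31. The choice by likeness fixed their direction.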

How the data were processed

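The members and lists were chosen with earlier results of these data known. The deposited spot and background intensity values were median pixel readings by the authors from Agilent Feature Extraction 10.7.3.1 on mouse arrays designed on mm9. The authors also deposited log2 ratios, whose direction was Cy5 over Cy3 when set against the scanner values (r across probes, turned to RL over control, -0.962, 0.953 and -0.959, slopes -1.18, 1.20 and -1.18, column medians 0.0024, -0.0011 and 0.00069), with their centring and scale otherwise unknown. They served as an alternative.

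Median spot intensities were background-corrected (normexp, offset 50), normalized by intensity loess (span 0.3), spatial loess (span 0.1) and Aquantile in limma 3.58.1 under R 4.3.3, after the study's methods. The study gives no offset or spans. Outlier and control spots were left out, spots of a probe averaged, probes kept if well above background in all 3 control or all 3 RL channels, and the brightest probe used per gene. Accessions of 28026 probes matched 21154 RefSeq symbols. The ratio was tested against 0 in limma with Benjamini-Hochberg adjustment over all 21743 genes and transcripts, at 0.05. The rank product null came from independent uniform ranks. The steps were tested on simulated data. Ratios correlated across genes at -0.11 between tumors 1 and 2, 0.45 between 1 and 3 and -0.11 between 2 and 3, where genes are not independent replicates. Each array paired both cultures of a tumor, and all arrays shared a slide and scan. Named genes were the members, in each related list any called gene or otherwise the highest and lowest tested, all NF-kB targets, and the 5 genes nearest to Adamts8. Some results that fall under this rule or the marker lists are not reported here. Levels are normalized channel intensities, open to dye bias.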

Additional observations from a re-analysis of the deposited data

How the results depend on the processing

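The counts called by limma, 1 higher and 5 lower, moved with most settings and the cause was not tested. They were 37 and 51 by the rank product, 14 and 29 with an intensity trend and robust moderation, 123 and 162 with a dye term, 6 and 12 without background correction, 4 and 10 with an offset of 10, and 2 higher with the authors' log2 ratios. They were 0 and 0 with processed signals and with median centering, 0 and 3 without the filter or with all 6 channels above background, and 3 lower with the mean over probes. Leaving out a replicate gave 0 to 561 higher and 1 to 922 lower. Median centering in place of loess moved the median of all genes by -0.11. It gave medians of -0.11 for the members, 0.020 for other ADAMTS, -0.14 for ADAMTS-like, -0.13 for other MMPs, -0.17 for other inhibitors, -0.18 for activators, -0.15 for ADAM, -0.22 for cathepsins, -0.12 for substrates and -0.11 for regulators, and turned Adamts5, Mmp3, Mmp14 and Timp1 below 0. Processed signals gave -0.11 for ADAMTS-like and -0.077 for other MMPs, no filter gave 0.0095 for other ADAMTS and -0.010 for ADAMTS-like, and a dye term gave -0.0010 for activators. Leaving out a replicate gave medians of 0.034 to 0.064 for the members, 0.065 to 0.14 for other ADAMTS, -0.066 to -0.0026 for ADAMTS-like, -0.033 to 0.026 for other MMPs and -0.065 to 0.023 for activators. Adamts8 stayed above 0 in all 15 alternatives that gave its value, from 0.36 with the mean over its probes to 0.79 without replicate 3. Its position by mean ratio was 39 with processed signals. As Adamts8 was chosen by its rise on these arrays, its sign over these settings is not evidence for that rise. Timp3 stayed below 0 in all 15. The spots of the dim Adamts8 probe read little above their local background, which limits its ratios.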
